A study of Mus musculus with 6 samples.

Results

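The genes described here are the replication-dependent histone genes of the mouse. They were taken as the rows of the count table whose symbol is H1f1 to H1f5 or starts with H2ac, H2bc, H3c or H4c followed by a number. The rule found 63 of the 49997 genes in the table, namely 5 linker histone (H1) genes and 18 H2A, 16 H2B, 12 H3 and 12 H4 genes for the core of the nucleosome. RefSeq annotates 1 of the H2A genes, H2ac14, as a pseudogene. They were measured by bulk RNA-seq of long-term haematopoietic stem cells (LT-HSCs), the bone marrow cells with the longest-lasting capacity to rebuild blood. The cells came from C57BL/6J mice 4 months of age and were sorted by flow cytometry into Asrij high cells (3 libraries) and Asrij low cells (3 libraries). Asrij is the product of Ociad1, an endosomal and mitochondrial protein. The labels give no allele, agent or treatment for either group. The deposited count table carries the tag ArjKI, which the labels do not explain, so whether the mice carried an engineered Asrij allele is not known here. The labels also do not say how Asrij was detected or whether replicates came from separate mice. The p-values below therefore measure the spread between these libraries, which may be technical.

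Replication-dependent histone genes lie in clusters, mostly lack introns, and are transcribed mainly in S phase, when new DNA has to be packed into nucleosomes. Their messenger RNAs end in a conserved stem-loop instead of a polyA tail. The stem-loop-binding protein (Slbp) holds this structure, and the U7 particle guides the cut just after it. Adult LT-HSCs are known as mostly quiescent cells, whereas the progenitors that follow them divide often.

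The stem-loop was looked for in the annotated 3′ ends, because messages that end just after it lack a polyA tail. A 3′ UTR of at least 20 bases was annotated for 47 of the 63 genes (GENCODE vM21, GRCm38), and 33 of these held a 16-base stem-loop. It was found in 3 of 4 such H1 genes, 9 of 10 H2A, 7 of 12 H2B, 5 of 10 H3 and 9 of 11 H4 genes. The annotated 3′ UTR ran on past the stem-loop, by 3 bases in H4c17, 840 in H1f2 and 4884 in H1f3. A match therefore does not mean that the annotated message ends there. The form of H1f2 was the commonest, with 24 of the 33 genes, 6 genes had the form of H4c18, 2 that of H4c2, and H4c1 alone had a changed loop. The stem-loop is in capitals, with 5 bases on each side.
H1f2: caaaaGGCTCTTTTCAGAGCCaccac
H4c18: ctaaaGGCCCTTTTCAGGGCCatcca
H4c2: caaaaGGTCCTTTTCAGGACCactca
H4c1: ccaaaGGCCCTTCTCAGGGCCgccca
The labels name polyA RNA as the molecule, while the protocol in the same labels describes depletion of ribosomal RNA. Histone genes made up 2.22%, 2.32% and 2.33% of all counts in Asrij high replicates 1 to 3, against 0.529%, 0.446% and 0.697% in Asrij low replicates 1 to 3, so these transcripts were counted in every library. Which of the 2 preparations was used cannot be told from the labels.

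The libraries held 62732782 to 72855125 counts in Asrij high and 24707012 to 46240743 counts in Asrij low, so low values are less precise in Asrij low. Ociad1, the gene behind the sort, had 86.9, 77.6 and 76.3 CPM (the count per TMM-scaled library total, in the usual CPM unit) in Asrij high, against 57.9, 50.3 and 46.7 CPM in Asrij low (log2 fold change 0.64 ± 0.16 SE, edgeR adjusted p = 0.0115). That call was lost with library totals in place of TMM factors (0.133), with upper quartile factors (0.0834) and without Asrij high replicate 1 (0.0831). All 12 LT-HSC markers had counts in both groups, and their summed level was 540 to 895 CPM in Asrij high, against 1663 to 1968 CPM in Asrij low. Of the 12, 10 were called lower in Asrij high and none higher. The median log2 fold change of the list was -2.17, a larger drop than the sums show. Kit, named after its values were seen, was the largest part of the sum. It averaged 378 CPM in Asrij high, against 682 CPM in Asrij low (log2 fold change -0.85). Over all genes tested, 21.7% were called higher and 17.7% lower. Markers of several other cell types also moved with the groups. Summed granulocyte markers were 4219 to 7180 CPM in Asrij high, against 839 to 3438 CPM in Asrij low (4 of 9 called higher), and summed erythroid markers were 4666 to 8307 CPM in Asrij high, against 11116 to 80021 CPM in Asrij low (4 of 10 called higher, 5 lower). B cell markers summed to 8.40 to 11.9 CPM in Asrij high, against 60.7 to 181 CPM in Asrij low (6 of 8 called lower), stromal markers to 11.3 to 22.1 CPM in Asrij high, against 90.4 to 598 CPM in Asrij low (6 of 6 called lower), and macrophage markers to 33.2 to 44.0 CPM in Asrij high, against 58.8 to 150 CPM in Asrij low (4 of 6 called lower). Mast cell and basophil markers summed to 2.94 to 8.40 CPM in Asrij high, where Cma1 had no count, and 13.5 to 60.9 CPM in Asrij low (3 of 5 tested called lower). Megakaryocyte markers (176 to 685 CPM in Asrij high, 367 to 598 CPM in Asrij low) and T and NK cell markers (28.6 to 64.6 CPM in Asrij high, 25.98 to 42.1 CPM in Asrij low) overlapped between the groups in their sums, with 1 of 5 megakaryocyte and 1 of 4 tested T and NK cell genes called lower. A count of 1 in lists this short does not set them apart from the 17.7% of all genes called lower. The part of all these cell types in the histone values was not tested.

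Histone genes of all 5 classes were higher in Asrij high LT-HSCs. Of 62 genes with enough counts to be tested, 61 were called higher (edgeR quasi-likelihood test, adjusted p below 0.05) and 0 lower; no member had an unadjusted p below 0.05 in the lower direction, and DESeq2 and limma-voom also called 61 higher and 0 lower. Over all 21445 genes tested, 21.7% were called higher and 17.7% lower. In the same 61 genes every Asrij high library lay above every Asrij low library, a pattern seen in 30.2% of all genes tested. The median log2 fold change of the 62 genes was 2.49, a 5.61-fold difference, beside a median of -0.02 over all genes. By class, 5 of 5 H1, 17 of 17 tested H2A, 15 of 16 H2B, 12 of 12 H3 and 12 of 12 H4 genes were called higher. In bulk samples a larger share of cells that express these genes and more of their RNA per cell cannot be told apart.

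**Figure D1:**
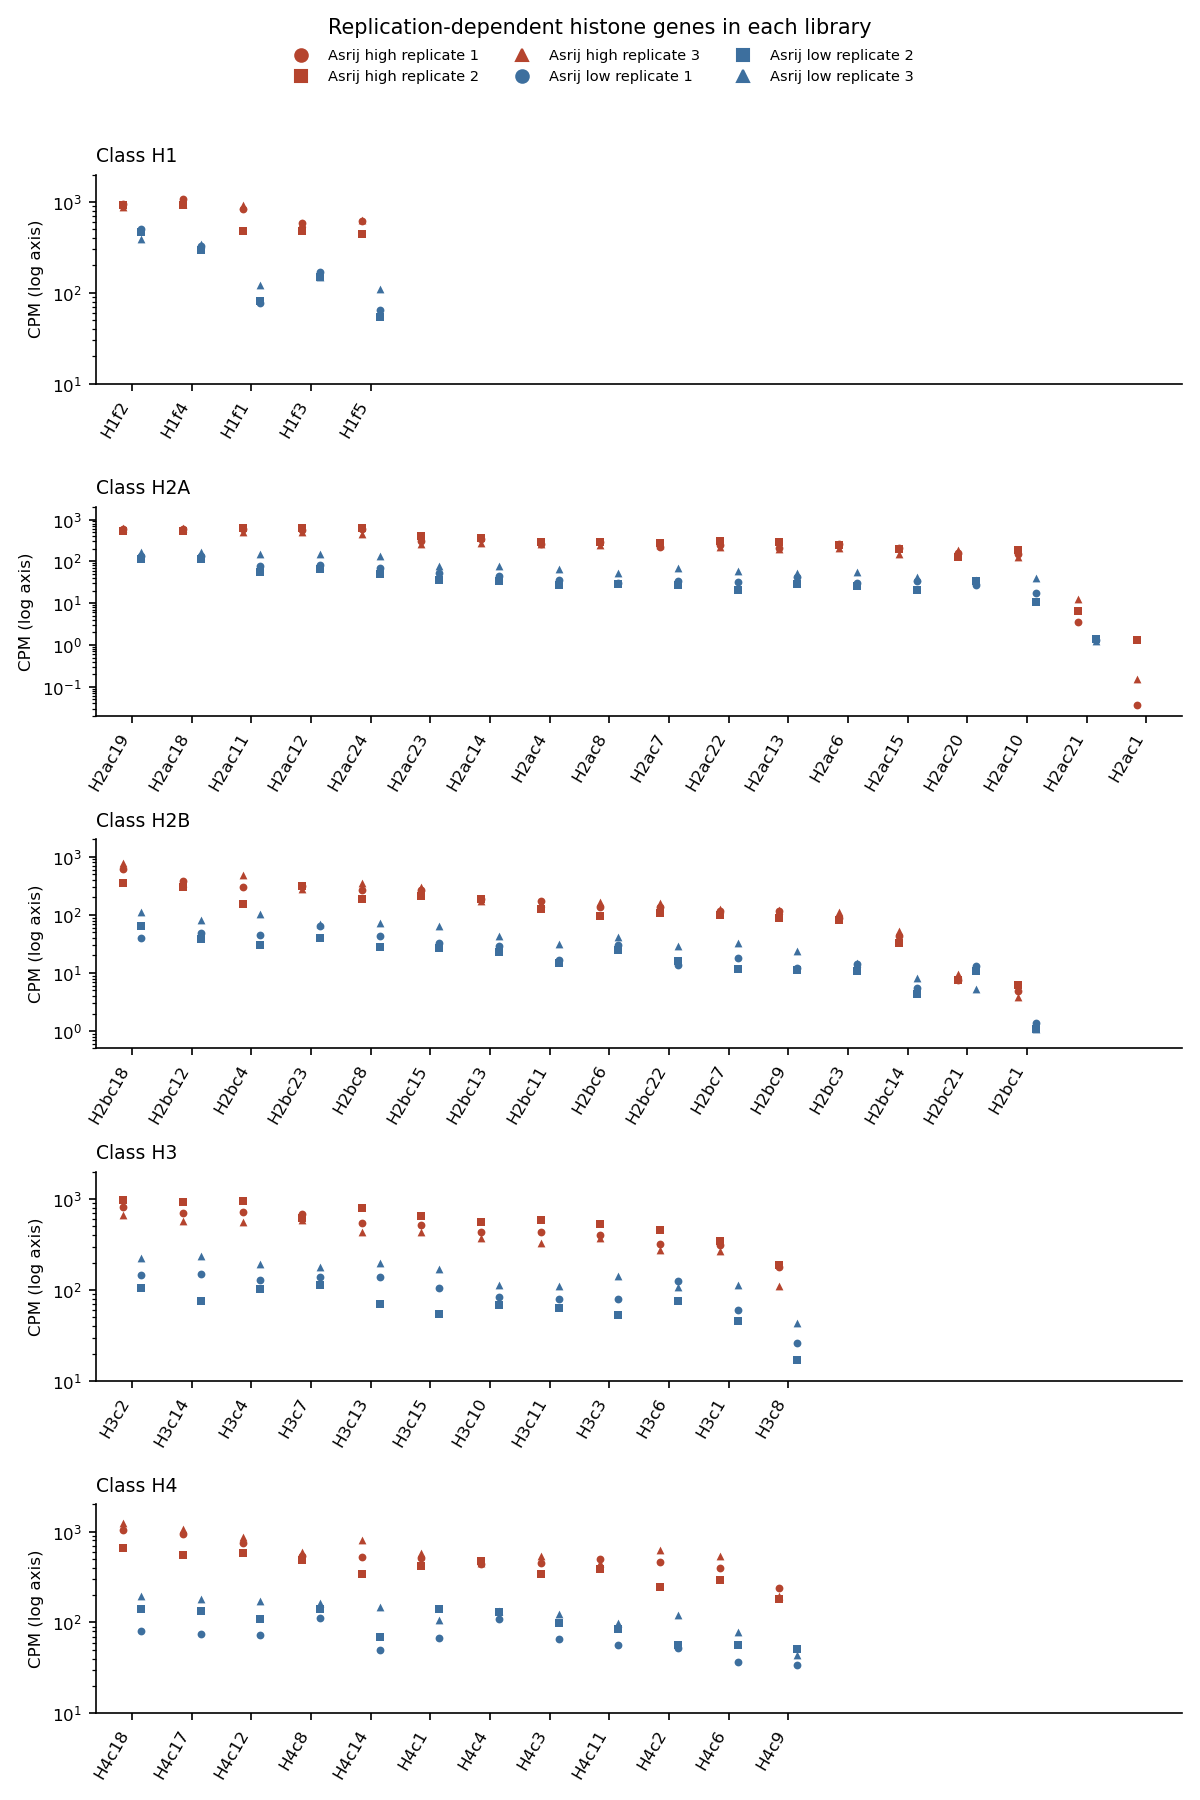
Level of each histone gene in each library, in CPM on a log axis whose range differs between classes; red, Asrij high; blue, Asrij low; marker shapes give the replicate and genes are ordered by mean CPM. The red points lie above the blue ones for every gene except H2bc21, and the counts of 0 for H2ac1 in Asrij low are not drawn.

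**Figure D2:**
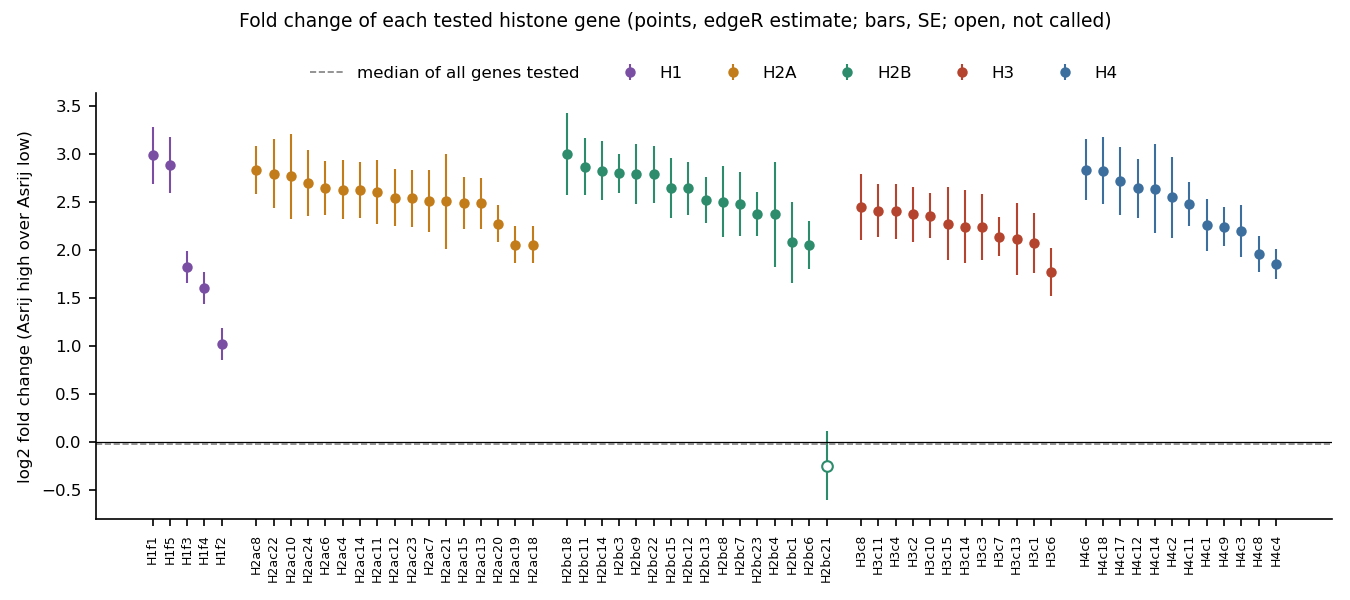
The log2 fold change, Asrij high over Asrij low, of the 62 tested histone genes by class (points, edgeR estimates; bars, SE). H1f2 (1.02) and H2bc21 (-0.25, open symbol, not called) lie below the other genes, and the dashed line is the median of all genes tested (-0.02).

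The summed level of a class adds up the members that the symbol rule took, with the pseudogene H2ac14 counted in H2A. It leaves out genes such as H2aw and H4f16, described below, and is not corrected for length. Summed H4 was 6766, 4955 and 7992 CPM in Asrij high replicates 1 to 3, against 813, 1212 and 1561 CPM in Asrij low replicates 1 to 3, a 5.59-fold difference (log2 ratio 2.48). Summed H3 was 6064, 7635 and 4998 CPM in Asrij high, against 1267, 847 and 1837 CPM in Asrij low, a 4.90-fold difference (2.29). For both classes the lowest Asrij high library stood well above the highest Asrij low one. Summed H2A was 5568, 5903 and 5095 CPM in Asrij high, against 885, 693 and 1403 CPM in Asrij low, a 5.79-fold difference (2.53). Summed H2B was 3161, 2361 and 3650 CPM in Asrij high, against 429, 356 and 737 CPM in Asrij low, a 6.23-fold difference (2.64). The 4 core classes thus differed between the groups by similar factors and without overlap. Summed H1 was 4051, 3239 and 3971 CPM in Asrij high, against 1136, 1045 and 1111 CPM in Asrij low, a 3.41-fold difference (1.77), the smallest of the 5 classes. H1 genes made up 14.9 ± 1.28% of histone CPM in Asrij high, against 22.3 ± 4.86% in Asrij low (SD, n = 3 each), and the ranges, 13.4% to 15.8% in Asrij high and 16.7% to 25.2% in Asrij low, did not overlap. These sums are descriptions and were not tested.

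**Figure D3:**
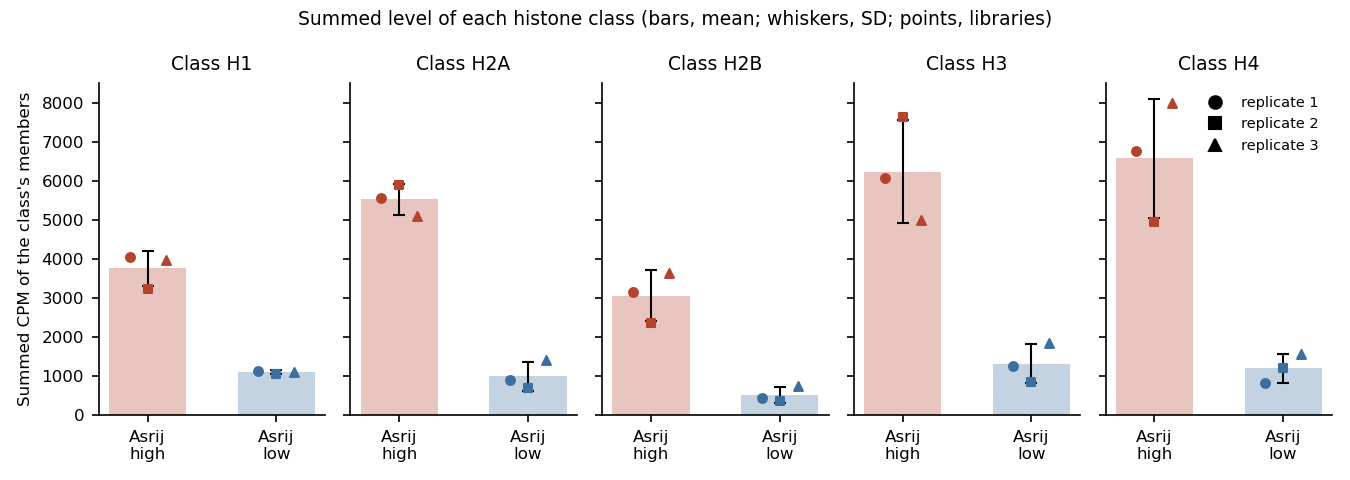
Summed CPM of each histone class in Asrij high (red) and Asrij low (blue) libraries (bars, means; whiskers, SD, n = 3; points, libraries). The groups do not overlap in any class, and Asrij high replicate 2 (square) is the highest of its group for H2A and H3 and the lowest for H1, H2B and H4.

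The classes did not keep a fixed ratio within a group. The ratio of summed H4 to summed H3 CPM, not corrected for length, was 1.12, 0.649 and 1.60 in Asrij high replicates 1 to 3 and 0.641, 1.43 and 0.850 in Asrij low replicates 1 to 3. The ratio of H2B to H2A was 0.568, 0.400 and 0.716 in Asrij high and 0.484, 0.514 and 0.525 in Asrij low. Both ratios overlapped between the groups, and the H4 to H3 ratio varied over 2-fold within each. Asrij high replicate 2 and replicate 3 lay at opposite ends: relative to replicate 3, replicate 2 had a median log2 ratio of 0.64 over the H3 genes, 0.28 over H2A, -0.30 over H1, -0.47 over H2B and -0.63 over H4. All 12 H3 genes were higher in replicate 2 than in replicate 3, and 11 of 12 H4 genes were lower. Coding sequences of H2A and H3 genes had the highest GC content (medians of 69.5% and 67.4%), followed by H4 (65.7%), H2B (63.1%) and H1 (61.8%). Across 61 genes, which share their libraries, the log2 ratio of replicate 2 to replicate 3 had a Pearson r of 0.58 and a Spearman rho of 0.65 with coding GC content. In Asrij low, the log2 ratio of replicate 2 to replicate 1 gave r = -0.31 and rho = -0.39. The sign depends on which library is divided by which, and the numbers are not pairs, so signs cannot be compared between groups. The part of GC content in the class ratios was not tested.

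Linker histones, which bind the DNA between nucleosomes, were all called higher, with log2 fold changes between 1.02 and 2.99. H1f2 had 942, 919 and 877 CPM in Asrij high, against 498, 464 and 385 CPM in Asrij low. The groups did not overlap, and the log2 fold change of 1.02 ± 0.17 (SE; adjusted p = 0.00191) was the smallest of all called members. H1f1 had 824, 476 and 917 CPM in Asrij high, against 76.4, 80.2 and 123 CPM in Asrij low (2.99 ± 0.30, adjusted p = 0.000264). H1f5 had 623, 438 and 630 CPM in Asrij high, against 64.9, 53.8 and 110 CPM in Asrij low (2.89 ± 0.29, adjusted p = 0.000284). H1f1 and H1f5 are known in the mouse as linker histones of dividing cells, and both were more than 7-fold higher in Asrij high (7.94-fold and 7.40-fold). H1f3 averaged 554 ± 62.3 CPM in Asrij high, against 156 ± 12.04 CPM in Asrij low (SD, n = 3 each; log2 fold change 1.82). H1f4 averaged 985 ± 79.8 CPM in Asrij high, against 323 ± 24.2 CPM in Asrij low (log2 fold change 1.61). These 2 genes lay between H1f2 and the H1f1 and H1f5 pair, with no overlap between the groups.

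Within the H1 message, 3 of the 5 genes had shares that set the groups apart. H1f2 supplied 23.2%, 28.4% and 22.1% of summed H1 CPM in Asrij high, against 43.8%, 44.3% and 34.7% in Asrij low. H1f1 supplied 19.4 ± 4.28% in Asrij high and 8.48 ± 2.27% in Asrij low, and H1f5 14.9 ± 1.25% in Asrij high and 6.91 ± 2.59% in Asrij low (SD, n = 3 each). None of these 3 shares overlapped between the groups, while those of H1f3 and H1f4 did. Such a lack of overlap was not particular to H1: the shares of H2bc21, H3c2, H4c3 and H4c18 in their own classes, for example, did not overlap either. Shares of a class add up to a whole, so the 3 H1 shares are not separate results. An exact two-sided permutation test gave p = 0.1 for H1f2, H1f1 and H1f5 (0.167 after Benjamini-Hochberg adjustment over the 5 genes). This is the smallest p that 3 against 3 libraries allow. Any share without overlap gets it, so the test adds nothing to the ranges. Per kb of gene, H1f2 had the highest level in Asrij low of the 59 members with at most 1 annotated transcript, at 619 ± 79.3 CPM per kb, followed by H1f4 at 413 ± 30.9 CPM per kb. In Asrij high it had 1259 ± 45.3 CPM per kb, below H4c18 (2414 ± 728 CPM per kb), H4c17, H4c12, H3c2, H3c4 and H4c14 and level with H1f4 (1260 ± 102 CPM per kb). The libraries of H1f2 and H1f4 overlapped in Asrij high (H1f2 at 1210 to 1299 and H1f4 at 1183 to 1375 CPM per kb) but not in Asrij low (H1f2 at 532 to 686 and H1f4 at 380 to 441 CPM per kb). These levels used the RefSeq gene span, 725 bases for H1f2 and 782 for H1f4. Their longest GENCODE transcripts have 1560 and 1930 bases, so the ranks may depend on the length chosen.

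**Figure D4:**
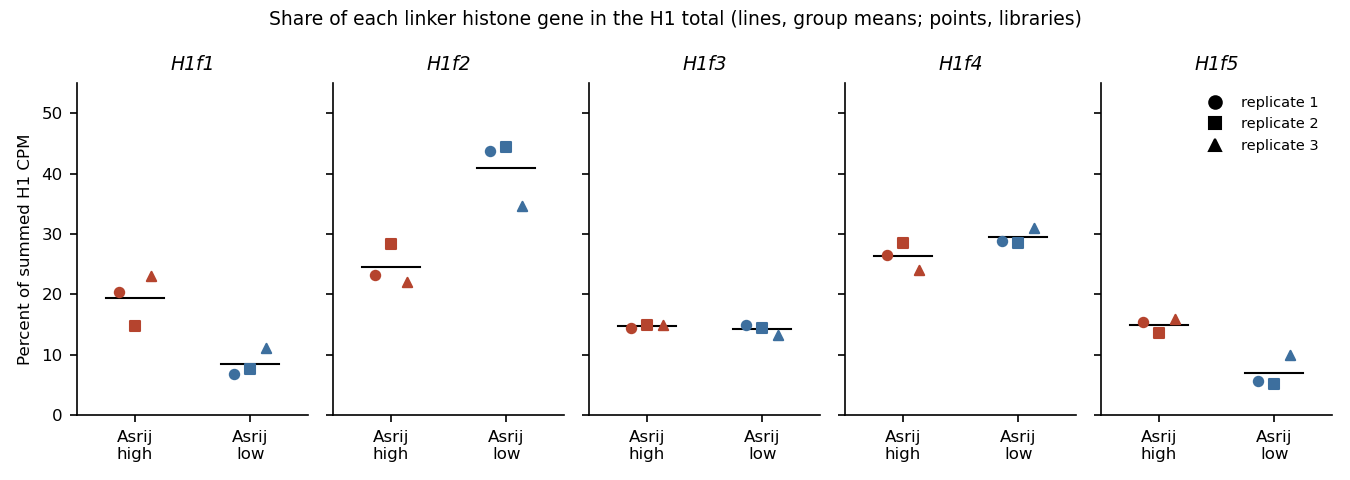
Share of each linker histone gene in summed H1 CPM, in percent, in Asrij high (red) and Asrij low (blue) libraries (points, libraries; lines, group means). H1f2 has the smaller share in Asrij high (22.1% to 28.4%, against 34.7% to 44.3% in Asrij low), and H1f1 and H1f5 have the larger one.

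The H2A genes encode the protein that joins H2B as a dimer in the nucleosome core. By translated coding sequences they make 8 proteins, of which 1 is shared by 9 genes. H2ac18 had 581, 527 and 624 CPM in Asrij high, against 135, 113 and 168 CPM in Asrij low, with no overlap (log2 fold change 2.06 ± 0.19, adjusted p = 0.000221), the smallest change of the class. H2ac19 has the same coding sequence, and the ratio of their counts lay between 0.988 and 0.999 in all 6 libraries, so the values are uncertain for either gene alone. Their shared protein differs from the commonest H2A by T16S, S40A, L51M and R99K (the commonest protein's residue first; positions counted from 1 after the initiator methionine). The 2 genes supplied 21.2 ± 3.32% of summed H2A CPM in Asrij high, against 29.1 ± 4.45% in Asrij low (SD, n = 3 each), with overlapping libraries. H2ac8, which encodes the commonest protein, had 282, 284 and 245 CPM in Asrij high, against 30.7, 29.3 and 53.4 CPM in Asrij low (2.84 ± 0.25, adjusted p = 0.000218), the largest change of the class. H2ac11 averaged 578 ± 57.1 CPM in Asrij high, against 94.7 ± 49.0 CPM in Asrij low (log2 fold change 2.61). The pseudogene H2ac14 had 344, 352 and 276 CPM in Asrij high, against 45.02, 34.7 and 78.1 CPM in Asrij low (2.62 ± 0.29, adjusted p = 0.000376; named after its values were seen). H2ac1, whose product is known as a testis histone, was not tested: it had 2, 84 and 10 counts in Asrij high and 0 in each Asrij low library, where 0 counts allow up to 0.0555 to 0.116 CPM (3 counts; counting error only).

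Among the H2B genes, which encode 10 proteins, H2bc18 had 619, 353 and 784 CPM in Asrij high, against 39.9, 64.6 and 114 CPM in Asrij low. Its log2 fold change of 3.01 ± 0.43 (adjusted p = 0.00124) was the largest of all members, and the groups did not overlap. H2bc12 averaged 347 ± 38.9 CPM in Asrij high, against 55.6 ± 21.9 CPM in Asrij low (log2 fold change 2.64). H2bc4 had 301, 156 and 477 CPM in Asrij high, against 45.4, 30.0 and 105 CPM in Asrij low (2.37 ± 0.55, adjusted p = 0.0118), the highest adjusted p among the called members. Without Asrij high replicate 1 its adjusted p was 0.117, and without Asrij high replicate 3 it was 0.0666. H2bc1, whose product is known as the testis form of H2B, averaged 4.999 ± 1.21 CPM in Asrij high, against 1.17 ± 0.17 CPM in Asrij low (log2 fold change 2.08, adjusted p = 0.00458); it was named after its values were seen.

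H2bc21 was the only tested member not called. It had 7.46, 7.52 and 9.74 CPM in Asrij high, against 13.1, 10.8 and 5.37 CPM in Asrij low, from 139 to 707 counts per library. The groups overlapped, the log2 fold change was -0.25 ± 0.36 (adjusted p = 0.614), and it turned positive, at 0.06, without Asrij low replicate 1. In the mouse this gene is known for an H2B made outside S phase in olfactory neurons. Its protein differs from the commonest H2B by P3L, V39I, S75N, A97S and S124A (counted from 1 after the initiator methionine). Its annotated transcript has 2620 bases, 2192 of them in the 3′ UTR, where no stem-loop was found, and it had 3.09 ± 0.49 CPM per kb in Asrij high and 3.66 ± 1.49 CPM per kb in Asrij low.

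H2bc21 shares its upstream region with a gene that did differ. The 2 genes lie on chromosome 3 with their starts 192 bases apart, H2ac20 on the minus strand (96220413 to 96220880) and H2bc21 on the plus strand (96221072 to 96223738, GRCm38, RefSeq). H2ac20 had 162, 129 and 182 CPM in Asrij high, against 27.9, 33.4 and 36.5 CPM in Asrij low, with no overlap (log2 fold change 2.28 ± 0.19, adjusted p = 0.000198); it was named after its values were seen. In all, 12 H2A genes lay head to head with an H2B gene, with 164 to 281 bases between the starts. Of the 11 pairs with both genes tested, 10 had both genes called higher. As 61 of the 62 tested members were called higher, beside 21.7% of all genes tested, this count follows from H2bc21 alone. Within these 10 pairs the H2A log2 fold change minus that of H2B lay between -0.26 and 0.33. For H2ac20 and H2bc21 the same difference was 2.52. All tested H2A genes lay between 2.06 and 2.84. Whether paired genes were closer than other H2A and H2B genes was not tested.

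**Figure D5:**
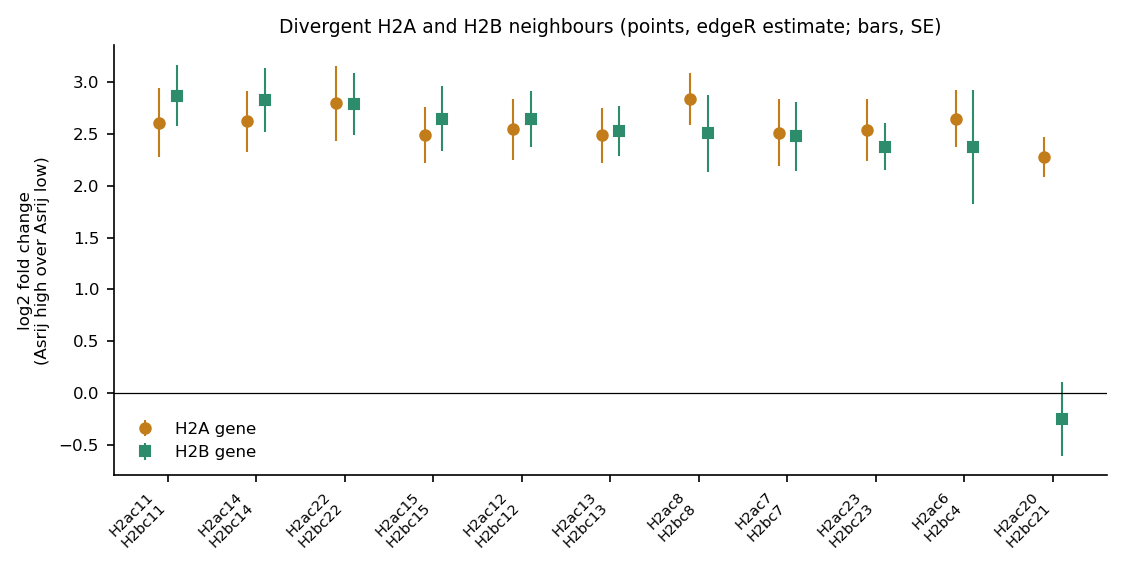
The log2 fold change, Asrij high over Asrij low, of the H2A gene (circle) and the H2B gene (square) of each head-to-head pair, with SE bars. In 10 pairs both genes lie between 2.37 and 2.87, and in the pair at the right H2ac20 is at 2.28 and H2bc21 at -0.25.

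The promoters of these pairs are shown because 1 stretch of DNA faces both genes. Letters searched, on both strands, were the octamer ATTTGCAT, the CCAAT box CCAAT, the TATA box TATAAA, and TTTCCCGC or TTTGGCGC for E2F, and matches are in capitals. The windows run from 250 bases before to 50 bases after the RefSeq start (GRCm38.p6), 5′ to 3′ on the strand of the gene named. The start of H2bc21 falls inside the window of H2ac20, and that of H2ac12 inside the window of H2bc12, a pair in which both genes differed alike (2.55 and 2.64).
H2ac20, chr3:96220831-96221130, minus strand: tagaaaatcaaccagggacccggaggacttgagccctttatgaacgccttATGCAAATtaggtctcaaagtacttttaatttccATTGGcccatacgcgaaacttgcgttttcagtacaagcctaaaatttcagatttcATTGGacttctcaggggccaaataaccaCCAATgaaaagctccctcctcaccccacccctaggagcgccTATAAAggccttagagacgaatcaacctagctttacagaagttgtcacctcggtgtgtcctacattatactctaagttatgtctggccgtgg
H2bc12, chr13:22035571-22035870, plus strand: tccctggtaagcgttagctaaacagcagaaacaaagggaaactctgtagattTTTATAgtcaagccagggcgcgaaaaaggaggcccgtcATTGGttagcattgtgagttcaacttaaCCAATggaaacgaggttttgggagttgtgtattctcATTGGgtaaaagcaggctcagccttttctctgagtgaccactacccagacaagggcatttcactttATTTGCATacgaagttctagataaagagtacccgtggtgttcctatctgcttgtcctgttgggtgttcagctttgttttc
Both windows hold an octamer, CCAAT boxes and a TATA match. A promoter entry was at hand for 57 of the 63 members, and not for H2bc4, H2bc21, H2ac14, H3c1, H3c7 or H4c14. CCAAT was in all 17 H2A, 14 H2B, 10 H3 and 5 H1 promoters but in 3 of 11 H4 promoters, against 37.4% of 32851 promoters of the same length. The octamer, a site known for Pou2f1 (Oct1) in H2B promoters, was in 7 of 14 H2B and 6 of 17 H2A promoters, in no H1, H3 or H4 promoter, and in 1.74% of all promoters. TATAAA was in 59.6% of members' promoters and 13.6% of all promoters, and an E2F string in 1 of 57 and in 1.56%. Matches are descriptions of letters, and the shared windows count for both genes of a pair.

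The H3 genes encode 2 proteins that differ by S96C (counted from 1 after the initiator methionine), the change that separates H3.1, with cysteine, from H3.2. H3c2, an H3.2 gene, had 823, 977 and 675 CPM in Asrij high, against 146, 105 and 226 CPM in Asrij low, with no overlap (log2 fold change 2.37 ± 0.29, adjusted p = 0.000515). H3c4 averaged 747 ± 203 CPM in Asrij high, against 141 ± 46.7 CPM in Asrij low (2.41), and H3c14 averaged 734 ± 177 CPM in Asrij high, against 155 ± 80.0 CPM in Asrij low (2.25); H3c14 shares its coding sequence with H3c15. The smallest change was that of H3c6, an H3.2 gene, which averaged 351 ± 95.4 CPM in Asrij high, against 103 ± 24.8 CPM in Asrij low (1.77, adjusted p = 0.000939). The largest was that of H3c8, an H3.1 gene, which averaged 159 ± 42.4 CPM in Asrij high, against 29.0 ± 13.4 CPM in Asrij low (2.45, adjusted p = 0.000905). The 4 H3.1 genes together supplied 22.0 ± 0.32% of summed H3 CPM in Asrij high, against 21.2 ± 1.68% in Asrij low (SD, n = 3 each). Single libraries ranged from 21.7% to 22.3% in Asrij high and from 19.7% to 23.02% in Asrij low, and the groups overlapped.

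All 12 H4 genes encode 1 protein of 103 residues, so they differ only in where and how their message is made. H4c18 had 1040, 659 and 1241 CPM in Asrij high, against 80.0, 140 and 193 CPM in Asrij low, with no overlap (log2 fold change 2.83 ± 0.35, adjusted p = 0.000568). H4c17, with the same coding sequence, averaged 853 ± 274 CPM in Asrij high, against 129 ± 52.8 CPM in Asrij low (2.72), and H4c12 averaged 733 ± 151 CPM in Asrij high, against 117 ± 49.0 CPM in Asrij low (2.64). The largest change was that of H4c6, which averaged 411 ± 124 CPM in Asrij high, against 57.4 ± 20.9 CPM in Asrij low (2.84 ± 0.32, adjusted p = 0.000376). H4c4 had 437, 470 and 449 CPM in Asrij high, against 110, 131 and 134 CPM in Asrij low, the smallest change of the class (1.86 ± 0.16, adjusted p = 0.000203). Its libraries agreed more closely within each group than those of H4c18. H4c18 lies on chromosome 13 (21831792 to 21832197, minus strand), and its promoter is shown as that of an H4 gene with a TATA match and no CCAAT box.
H4c18, chr13:21832148-21832447, minus strand: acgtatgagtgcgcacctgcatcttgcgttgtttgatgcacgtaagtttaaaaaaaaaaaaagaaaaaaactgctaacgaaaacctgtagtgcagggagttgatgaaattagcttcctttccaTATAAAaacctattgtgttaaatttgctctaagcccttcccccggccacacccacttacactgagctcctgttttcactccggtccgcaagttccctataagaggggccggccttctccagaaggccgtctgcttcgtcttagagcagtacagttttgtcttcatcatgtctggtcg

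The members lie in 4 stretches of chromosome 13 and 1 of chromosome 3, split where neighbours were over 100000 bases apart. On chromosome 13, 18 genes between 21715711 and 21833475 had a median log2 fold change of 2.63, 5 genes between 22035122 and 22043658 one of 2.61, and 28 genes between 23531044 and 23764412 one of 2.39. Every gene of these 3 stretches was called higher, as were 61 of the 62 tested members and 21.7% of all genes tested. The counts per stretch thus add nothing to the count over all members. The testis genes H2bc1 and H2ac1 form the fourth stretch, between 23933725 and 23934913. On chromosome 3, 9 of 10 genes between 96219885 and 96270192 were called higher (median 2.26), and H2bc21 was the exception. In 15 members the longest annotated transcript exceeds 1000 bases, H1f2, H1f3, H1f4, H4c4 and H2bc21 among them. Their median log2 fold change was 2.25, beside 2.53 for the 47 other tested members, and this split was made after the values were seen. Several coding sequences are nearly alike: 39 of 62 were at least 98% identical to that of another member of the same class and length, and 8 were identical, so a value of 1 gene may include reads of its copy.

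Histone genes of the same kind outside the symbol rule were looked at too. H2aw, H2bu2 and H4f16, counterparts whose symbols the rule did not take, were all called higher, beside 21.7% of all genes tested. H2aw averaged 469 ± 150 CPM in Asrij high, against 70.1 ± 20.5 CPM in Asrij low (log2 fold change 2.74, adjusted p = 0.000359), H4f16 averaged 107 ± 27.3 CPM in Asrij high, against 22.3 ± 8.47 CPM in Asrij low (2.27), and H2bu2 averaged 18.5 ± 5.17 CPM in Asrij high, against 7.02 ± 3.36 CPM in Asrij low (1.40). H2bu2 lost its call (adjusted p = 0.0578 to 0.0721) with Asrij high replicate 1, Asrij high replicate 3 or Asrij low replicate 1 left out.

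Genes that make and process the histone message were also higher. Of 21 tested genes for histone gene activation and 3′ end processing, 16 were called higher and 0 lower by edgeR. The shares over all genes tested were 21.7% higher and 17.7% lower. The median log2 fold change of the list was 0.74. In this processing list and in the chaperone and DNA replication lists below, no gene had an unadjusted p below 0.05 in the lower direction. DESeq2 and limma-voom called 0 lower in them. Slbp, whose protein binds the stem-loop shown above, had 137, 92.5 and 142 CPM in Asrij high, against 32.5, 37.1 and 29.6 CPM in Asrij low, with no overlap (1.90 ± 0.20, adjusted p = 0.000328). Cyclin E, the partner of Cdk2 in activating the histone gene regulator Npat, is encoded by Ccne1 and Ccne2. Ccne1 averaged 88.8 ± 29.3 CPM in Asrij high, against 5.46 ± 2.44 CPM in Asrij low (4.03 ± 0.38, adjusted p = 0.000230), and Ccne2 averaged 41.9 ± 13.5 CPM in Asrij high, against 8.55 ± 0.29 CPM in Asrij low (2.29). Npat itself was called higher by less (0.57 ± 0.19, adjusted p = 0.0407), and Ncbp1, a subunit of the nuclear cap-binding complex, by 1.47 ± 0.22. Lsm10 and Lsm11, proteins of the U7 particle, Zfp473, Hinfp and Pou2f1 were not called, and Rnu7, the U7 RNA, had too few counts to test. Npat, Lsm10, Lsm11, Zfp473, Hinfp, Pou2f1 and Rnu7 were named after their values were seen.

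Chaperones that bring new histones to the replication fork were called higher in 15 of 16 cases, beside 21.7% of all genes tested. Their median log2 fold change was 1.44, and Ipo4 was not called. Nasp, which holds H3 and H4 before assembly, had 370, 201 and 390 CPM in Asrij high, against 34.1, 60.7 and 55.9 CPM in Asrij low (2.67 ± 0.31, adjusted p = 0.000423). Asf1b averaged 46.2 ± 2.38 CPM in Asrij high, against 9.80 ± 2.76 CPM in Asrij low (2.24), and Chaf1a, the large subunit of chromatin assembly factor 1, averaged 394 ± 77.4 CPM in Asrij high, against 95.8 ± 17.98 CPM in Asrij low (2.04). Tonsl, a reader of new H4, averaged 79.7 ± 8.37 CPM in Asrij high, against 21.6 ± 2.20 CPM in Asrij low (1.88). Every Asrij high library lay above every Asrij low library for these 4 genes, as it did for 30.2% of all genes tested. The 4 were named for the smallest p in their list, so this adds nothing to their calls. Among 6 genes of replication-independent deposition, 2 were called higher, Hira (0.77 ± 0.17, adjusted p = 0.00611) and Daxx (0.69 ± 0.18, adjusted p = 0.0150), and 0 lower, with a median of 0.36. Beside the 21.7% of all tested genes called higher, a count of 2 in so short a list does not set it apart. Cabin1 and Ubn2 had log2 fold changes of 0.46 ± 0.17 and 0.26 ± 0.15 and were not called by edgeR (adjusted p = 0.0529 and 0.215). Cabin1 was called higher with limma-voom (0.0346), without a filter (0.0318) and without Asrij low replicate 1 (0.0281). Daxx lost its call with Asrij high replicate 1 left out (adjusted p = 0.111), and likewise with Asrij low replicate 3 left out (0.0582), with library totals (0.121) and with upper quartile factors (0.0858).

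Histone variants, a separate list outside the symbol rule, were mixed: 6 of 11 were called higher and 2 lower, with a median of 0.48. Over all genes tested, 21.7% were higher and 17.7% lower. The count of lower genes is thus close to the background. Cenpa, the H3 variant of centromeres, averaged 116 ± 16.1 CPM in Asrij high, against 17.2 ± 2.84 CPM in Asrij low (log2 fold change 2.76 ± 0.20, adjusted p = 0.000177). H2ax, the variant phosphorylated at DNA breaks, averaged 262 ± 30.3 CPM in Asrij high, against 45.3 ± 18.8 CPM in Asrij low (2.53), and H2az1 averaged 763 ± 116 CPM in Asrij high, against 189 ± 36.5 CPM in Asrij low (2.01). H2az2 was higher by 0.97 ± 0.18 (adjusted p = 0.00267). H1f0, a linker histone known to accumulate in resting and differentiated cells, had 67.5, 111 and 54.3 CPM in Asrij high, against 170, 188 and 89.5 CPM in Asrij low. It was called lower (-0.94 ± 0.32, adjusted p = 0.0446), although Asrij high replicate 2 lay above Asrij low replicate 3. Macroh2a1, a large H2A variant, had 195, 332 and 184 CPM in Asrij high, against 396, 350 and 376 CPM in Asrij low, and was called lower without overlap (-0.66 ± 0.23, adjusted p = 0.0485). Leaving out any of 4 libraries (replicates 1 and 3 of Asrij high, replicates 1 and 2 of Asrij low) ended both calls, with adjusted p = 0.0786 to 0.150, and that of Macroh2a1 also ended without Asrij low replicate 3 (0.0799).

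DNA replication genes moved with the histone genes: 32 of 33 were called higher and 0 lower, beside 21.7% and 17.7% of all genes tested. Their median log2 fold change was 1.95. Mcm10, needed to start replication forks, averaged 128 ± 27.1 CPM in Asrij high, against 12.7 ± 1.5 CPM in Asrij low (3.34 ± 0.22, adjusted p = 0.000132), and Cdc6, which loads the replicative helicase, averaged 286 ± 85.2 CPM in Asrij high, against 30.8 ± 7.59 CPM in Asrij low (3.21). Rfc4 and Pole were higher by 2.79 ± 0.25 and 2.01 ± 0.18. The histone median of 2.49 was thus above that of this list, but the 2 lists were not tested against each other. Other RNAs without a polyA tail were not higher as a group: of 8 tested, 0 were called in either direction by edgeR, and their median was -0.64. At an unadjusted p below 0.05, 4 of them were lower and 0 higher; DESeq2 and limma-voom each called 2 lower. Rn7sk averaged 2622 ± 497 CPM in Asrij high, against 3990 ± 843 CPM in Asrij low (-0.61 ± 0.24, adjusted p = 0.0688). Scarna2 averaged 35.7 ± 11.9 CPM in Asrij high, against 57.4 ± 6.25 CPM in Asrij low (-0.68, adjusted p = 0.0522). Rn7s1 and Rn7s2, which share reads, had log2 fold changes of -1.49 each (adjusted p = 0.0527 for both). Rn7s1 had 3106, 4775 and 5536 CPM in Asrij high, against 4570, 9591 and 23411 CPM in Asrij low, so the groups overlapped. Its log2 fold change ranged from -1.85 to -0.67 with 1 library left out in turn. With the RLE factors in place of TMM, Rn7sk and Scarna2 also passed the edgeR threshold (adjusted p = 0.0473 and 0.0334), and with library totals alone all 4 genes did. With the replicate number as a block, Rn7s1 (0.0243), Rn7s2 (0.0242) and Scarna2 (0.0378) passed it.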

How the data were processed

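RNA of sorted LT-HSCs was sequenced from 3 Asrij high and 3 Asrij low libraries, per the labels. The authors deposited raw read counts, 1 row per gene symbol. The tools named in the submitters' processing notes are FastQC, HISAT2, SAMtools and Subread, with mm10 as the build. Their versions, the annotation, and the settings for strand and for reads that map to several places are not given in these sources.

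The counts were tested with edgeR 4.0.16 (R 4.3.3; quasi-likelihood test, robust, TMM factors, group as the only term) on 21445 of 49997 genes kept by filterByExpr (minimum count 10, minimum total count 15). Adjusted p-values (Benjamini-Hochberg) cover these genes, with a threshold of 0.05. Fold changes are Asrij high over Asrij low, and SE was derived from the test statistic. The code was checked on simulated counts. Alternatives used DESeq2 1.42.0, limma 3.58.1 (voom), other factors, other filters, and fewer libraries. With library totals alone, 3270 genes were called higher and 4856 lower, in place of 4655 and 3797, and the median of all genes was -0.29 in place of -0.02.

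The members and the gene lists were chosen with earlier results of these data known. Members were named by rule: every H1 gene; in each other class the 3 with the highest mean CPM, those with the largest and smallest fold change, and those not called or not tested. Of each further list up to 4 genes with the smallest p were named, with those called lower in the lists on histones; marker lists of other cells are given as sums. Stem-loops and coding sequences came from GENCODE vM21, promoters and coordinates from RefSeq. Members were grouped by translated GENCODE coding sequences, a change from the planned RefSeq proteins. Levels per kb used the RefSeq gene span of the 59 members with 1 transcript at most. Replicates of a group differed by far more than counting noise, so none was merged. Counting error is small for most members, and the number of libraries, 3 per group, limits the precision.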

Additional observations from a re-analysis of the deposited data

How the results depend on the processing

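Under 15 alternatives 60 or 61 members were called higher and 0 lower, and the median log2 fold change of the tested members lay between 2.21 and 2.81. It was 2.23 with library totals alone and 2.21 with upper quartile factors, which also lowered the median of all genes; relative to that median it was 2.52 and 2.50, against 2.51 with TMM factors. Leaving out 1 library in turn gave 60 to 61 members higher, 0 to 0 lower, and a median of 2.33 to 2.81. Without the same libraries the log2 ratio of summed CPM ranged from 1.66 to 1.91 for H1, 2.34 to 2.79 for H2A, 2.45 to 2.92 for H2B, 2.04 to 2.55 for H3 and 2.26 to 2.71 for H4. The H1 ratio moved to 1.499 with library totals and 1.495 with upper quartile factors, and to 2.12 without H1f2; the cause was not tested for the scaling. Without both Asrij low replicate 3 and Asrij high replicate 2, 61 members were higher, with a median of 2.72, and 13 processing genes, 14 chaperones and 32 replication genes were called higher (the lists were rerun after seeing the data). Counting H2ac18 and H2ac19 once, also chosen after seeing the data, gave 2.60 for H2A. Without a filter H2bc4 lost its call (adjusted p = 0.101) and H2ac1, untested otherwise, gained one (0.0269).

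With the replicate number as a block (replicate block), 61 members were higher, 0 lower, and the median was 2.53; over all genes 4475 were higher and 3613 lower. The correlations of same-numbered libraries' deviations were 0.013, 0.046 and 0.22, of which 2 lay near 0, and the numbers were not treated as pairs. Among the named genes the block changed the calls of Rn7s1, Rn7s2 and Scarna2 and of no other. Of 795 values of 53 named genes under these alternatives, 737 kept direction and call, 23 lost the call and 32 gained one. Reversed values were those of H2bc21 without Asrij low replicate 1 (0.06) and of Ubn2 with library totals (-0.0091) and upper quartile factors (-0.016); neither gene was called. Leaving out 1 library at a time gave -0.56 to 0.057 for H2bc21. H2ac1 and Rnu7 had too few counts for the test at this depth.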
